A study of Homo sapiens with 24 samples.

Results

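The transcripts of 10 Notch pathway genes were followed in human U2OS osteosarcoma cells given the class I HDAC inhibitor mocetinostat. The genes were 3 receptors (NOTCH1, NOTCH2, NOTCH3), 4 ligands (JAG1, JAG2, DLL1, DLL4) and 3 targets (HES1, HEY1, HEY2), selected by their symbols from 57820 counted genes. JAG1 had a second, short entry with 36 fragments in all 24 libraries together, so the main JAG1 entry was used. RNA-seq was performed on 8 groups of 3 biological replicates. In AID-DIvA cells, WT or ID3-KO, untreated libraries were set beside libraries from cells that had 24 h of mocetinostat followed by 24 h in drug-free medium (recovered). U2OS cells of both genotypes were untreated or given mocetinostat, and the methods together with the series description place their collection at the end of the 24 h treatment. AID-DIvA cells are U2OS cells that carry the AsiSI nuclease under hormone and auxin control, and no group is labelled as having had breaks induced. ID3 is an inhibitor of basic helix-loop-helix transcription factors, and how many KO clones were used is not given in the sources used here.

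Several features of the labels limit the comparisons. In the AID-DIvA labels, treatment field and sample title state opposite things, and the titles were followed. If that field were right, every AID-DIvA treatment direction below would be turned, and the AID-DIvA interaction with it. Untreated and recovered AID-DIvA groups would then also change places in the levels and the genotype comparisons. The library names of the U2OS samples also carry the DIvA name, although their cell line field reads U2OS. Cell line label and recovery coincide, so recovered against unrecovered responses cannot be told apart from a difference between cell lines. The dose given for RNA-seq is not stated in the sources used here. Labels and main text of the study call the controls untreated, whereas its supplementary figure headings name DMSO. Whether the controls had the vehicle is therefore unclear.

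Notch receptors are single-pass membrane proteins that are activated by Jagged (JAG) or Delta-like (DLL) ligands on neighbouring cells. Ligand pulling exposes the receptor to ADAM proteases and γ-secretase, which release the intracellular domain. In the nucleus this domain joins the DNA-binding protein RBPJ and Mastermind and switches RBPJ from repression, which involves HDAC-containing corepressors, to activation. HES and HEY genes are the classical targets and encode basic helix-loop-helix repressors, and HES1 also represses its own promoter through N-boxes. In bone, Notch signalling is known for holding back osteoblast maturation, and it is often active in osteosarcoma.

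Library depth was 37878751 to 76906266 fragments counted to genes. ID3 transcripts were reduced but not lost in the KO cells. In AID-DIvA cells ID3 stood at 33.3, 32.0 and 38.8 CPM (counts scaled to library size with TMM factors) in untreated KO libraries against 47.9, 51.4 and 51.9 CPM in WT. In U2OS cells it stood at 32.2, 30.2 and 29.3 CPM against 80.7, 54.2 and 52.1 CPM. The log2 differences were -0.56 ± 0.07 (SE, adjusted p = 8.4e-06, edgeR) and -1.03 ± 0.17 (adjusted p = 0.0065; -0.80 without the U2OS library described next), so the transcript level goes with the genotype labels without testing the protein. Of the osteoblast markers, RUNX2 (11.8 to 47.9 CPM), COL1A1 (824 to 2530 CPM) and SPARC (871 to 1550 CPM) were expressed, whereas SP7 reached at most 0.114 CPM, IBSP 0.403 CPM and COL1A2 1.37 CPM. The T cell marker CD3E reached at most 0.0404 CPM and the epithelial KRT19 0.303 CPM, while EPCAM was at 4.42 to 10.4 CPM and the endothelial VWF at 1.46 to 10 CPM.

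One library stood apart. Replicate 1 of untreated WT U2OS differed from its partners with a chi-square per gene of 103 and 91.1, whereas all other pairs within groups lay between 2.79 and 27.3. NOTCH2 was at 140.2 CPM there against 309 and 301 CPM in replicates 2 and 3, and JAG1 at 23.1 CPM against 38.8 and 36.4 CPM. Its part in the results was not tested beyond leaving it out, and values without it are given beside the members' results that compare its group.

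The starts of 8 of the 10 genes matched the RefSeq promoter set (GRCh38.p14), with DLL1 and HEY1 unmatched. The 250 bases before the start are shown for HES1, the gene that was lower after treatment in all 4 settings, and for DLL4 and JAG2, which had the largest increases among the 4 ligands in treated WT U2OS cells. HES1 lies at chr3:194135898-194136147 on the plus strand, DLL4 at chr15:40929090-40929339 on the plus strand and JAG2 at chr14:105168777-105169026 on the minus strand. Capitals mark the RBPJ core (TGGGAA) and the N-box (CACNAG) in HES1, the GC box (GGGCGG) and CCAAT in DLL4, and the E-box (CANNTG) and GC box in JAG2, each on either strand.
HES1: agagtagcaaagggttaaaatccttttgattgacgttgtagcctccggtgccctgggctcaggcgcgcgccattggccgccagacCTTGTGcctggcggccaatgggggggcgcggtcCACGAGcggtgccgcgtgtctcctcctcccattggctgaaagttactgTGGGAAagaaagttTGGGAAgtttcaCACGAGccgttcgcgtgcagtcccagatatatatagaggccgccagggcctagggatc
DLL4: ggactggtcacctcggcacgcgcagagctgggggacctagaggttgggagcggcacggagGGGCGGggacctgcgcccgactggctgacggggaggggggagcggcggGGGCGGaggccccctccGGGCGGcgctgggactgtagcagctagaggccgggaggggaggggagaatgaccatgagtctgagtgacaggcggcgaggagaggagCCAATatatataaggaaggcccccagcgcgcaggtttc
JAG2: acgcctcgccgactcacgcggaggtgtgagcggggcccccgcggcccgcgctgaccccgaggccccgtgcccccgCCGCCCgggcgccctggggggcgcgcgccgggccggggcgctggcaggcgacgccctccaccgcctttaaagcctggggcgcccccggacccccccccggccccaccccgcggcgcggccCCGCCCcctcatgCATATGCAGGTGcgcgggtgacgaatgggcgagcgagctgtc

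The HES1 window held the RBPJ core 2 times, beginning 84 and 70 bases before the start, and the N-box 3 times, beginning 165, 132 and 58 bases before it. Of 35116 RefSeq promoters of this length, 20.85% held the RBPJ core and 32.04% the N-box. HEY2 held 1 RBPJ core, 213 bases before its start, and NOTCH3 held 1 N-box, 211 bases before its start, while the other matched members had neither in this window. DLL4 held the GC box 3 times and CCAAT 1 time, found in 42.64% and 32.01% of promoters. JAG2 held 2 E-boxes that directly adjoin, 42 and 36 bases before its start, and was the only matched member with this motif, which 61.82% of promoters held. ID proteins are known to keep E proteins, which bind E-boxes, off DNA. Such matches describe the letters and are not evidence of binding.

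In untreated WT AID-DIvA cells the receptors and HES1 were the most abundant transcripts per length, and DLL4 and HEY2 the least. Levels are CPM per kilobase of exon, mean ± SD over 3 libraries. NOTCH2 stood at 19.5 ± 0.608, HES1 at 12.2 ± 1.19, NOTCH3 at 9.26 ± 0.493 and NOTCH1 at 5.51 ± 0.0877. JAG1 followed at 3.72 ± 0.357, JAG2 at 1.03 ± 0.0903, HEY1 at 0.952 ± 0.0330 and DLL1 at 0.449 ± 0.0811, and DLL4 stood at 0.0153 ± 0.00571. JAG2 and HEY1 were neighbours in this order that did not differ beyond their spread. HEY2 was nearly silent, with no fragment in 15 of 24 libraries, at most 4 in any and 18 in all, and was not tested in any comparison. A count of 0 allows up to 3 fragments, which is 0.039 to 0.0792 CPM depending on the library, and this limit covers counting error only.

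**Figure D1:**
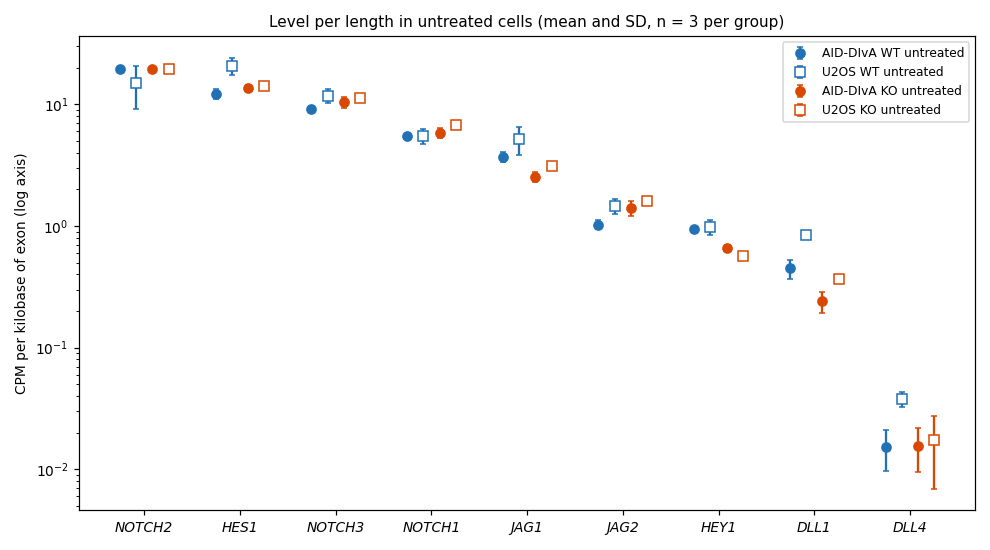
Levels of 9 genes in the 4 untreated groups, as CPM per kilobase of exon on a log axis, with the mean and SD of 3 libraries. NOTCH2, HES1 and NOTCH3 lie between 9.26 and 20.8 in each group, and DLL4 lies at 0.0376 or below.

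In untreated WT U2OS cells HES1 had the highest mean per length (20.8 ± 3.47 CPM per kilobase) and NOTCH2 the second (14.9 ± 5.67), and these did not differ beyond their spread, with NOTCH2 low in replicate 1. In both untreated ID3-KO groups the order of the 9 genes was that of WT AID-DIvA cells. The mean of HES1 lay below that of NOTCH3 in every treated group, with single libraries of the 2 genes overlapping in both recovered AID-DIvA groups. In treated ID3-KO U2OS cells it lay below NOTCH1 too, where NOTCH1 (12.4 ± 1.003) and HES1 (11.2 ± 0.616) did not differ beyond their spread.

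Treatment comparisons asked how each genotype responded to mocetinostat relative to its own untreated cells. At the end of treatment in U2OS cells most of the 9 tested members were higher. They were chosen with earlier results of these data known, so their excess over all genes is not independent support. The other Notch pathway genes, given below, showed no common direction. In WT U2OS cells, 6 of the 9 tested members rose, 1 fell (HES1) and 2 did not pass an adjusted p of 0.05 (edgeR quasi-likelihood test), where 26% of all 21797 tested genes rose and 22.9% fell. Of these members 4 rose beyond a log2 fold change of 1 (NOTCH1, JAG2, DLL4, HEY1). Among all 21797 tested genes 2958 rose beyond it, and 18.6% lay beyond it in either direction. The median log2 fold change was 0.62 over the members and 0.01 over all tested genes. In ID3-KO U2OS cells 8 of 9 rose and HES1 fell, where 35.8% of 21176 tested genes rose and 34% fell. There 5 rose beyond a log2 fold change of 1 (JAG1, JAG2, DLL1, DLL4, HEY1). Among all 21176 tested genes 3086 rose beyond it, and 20.3% lay beyond it in either direction. The members' median was 1.19 against 0.00. DLL4 passed the filter on low counts through the treated libraries alone, so it had to differ, and with it set aside 5 of 8 members rose in WT and 7 of 8 in ID3-KO cells. Without the WT library that stood apart, 8 of 9 members rose and 1 fell in WT cells. Of these, 3 rose beyond a log2 fold change of 1, DLL4 among them, with NOTCH1 at 0.94. Calls over all genes, in either direction, also went up in that fit, from 10653 to 14888. In a fit of all 4 U2OS groups NOTCH2 was lost in ID3-KO cells (0.15 ± 0.20, adjusted p = 0.55).

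After recovery in AID-DIvA cells little of this was seen. In WT cells 1 of 8 tested members was higher (HEY1), 3 were lower (JAG1, JAG2, HES1) and 4 did not pass, where 23.9% of 20289 tested genes were higher and 23% lower. In ID3-KO cells 1 was higher (HEY1), 2 were lower (JAG1, HES1) and 5 did not pass, where 20.2% of 20362 genes were higher and 19.9% lower. No member reached a log2 fold change of 1 in either genotype, the values farthest from 0 being -0.68 for HES1 in WT and 0.73 for HEY1 in ID3-KO cells, against 7.38% and 7.46% of all tested genes. The DESeq2 alternative also called 3 members lower in WT, without HEY1, and the same numbers in KO (1 higher, 2 lower). The median log2 fold changes were -0.20 and -0.03 over the members and -0.00 and -0.02 over all tested genes. Against these shares of all genes, 1 to 3 of 8 members is read as no result about the members together. The treatment and genotype comparisons share their untreated and treated libraries, so their values are given side by side only.

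**Figure D2:**
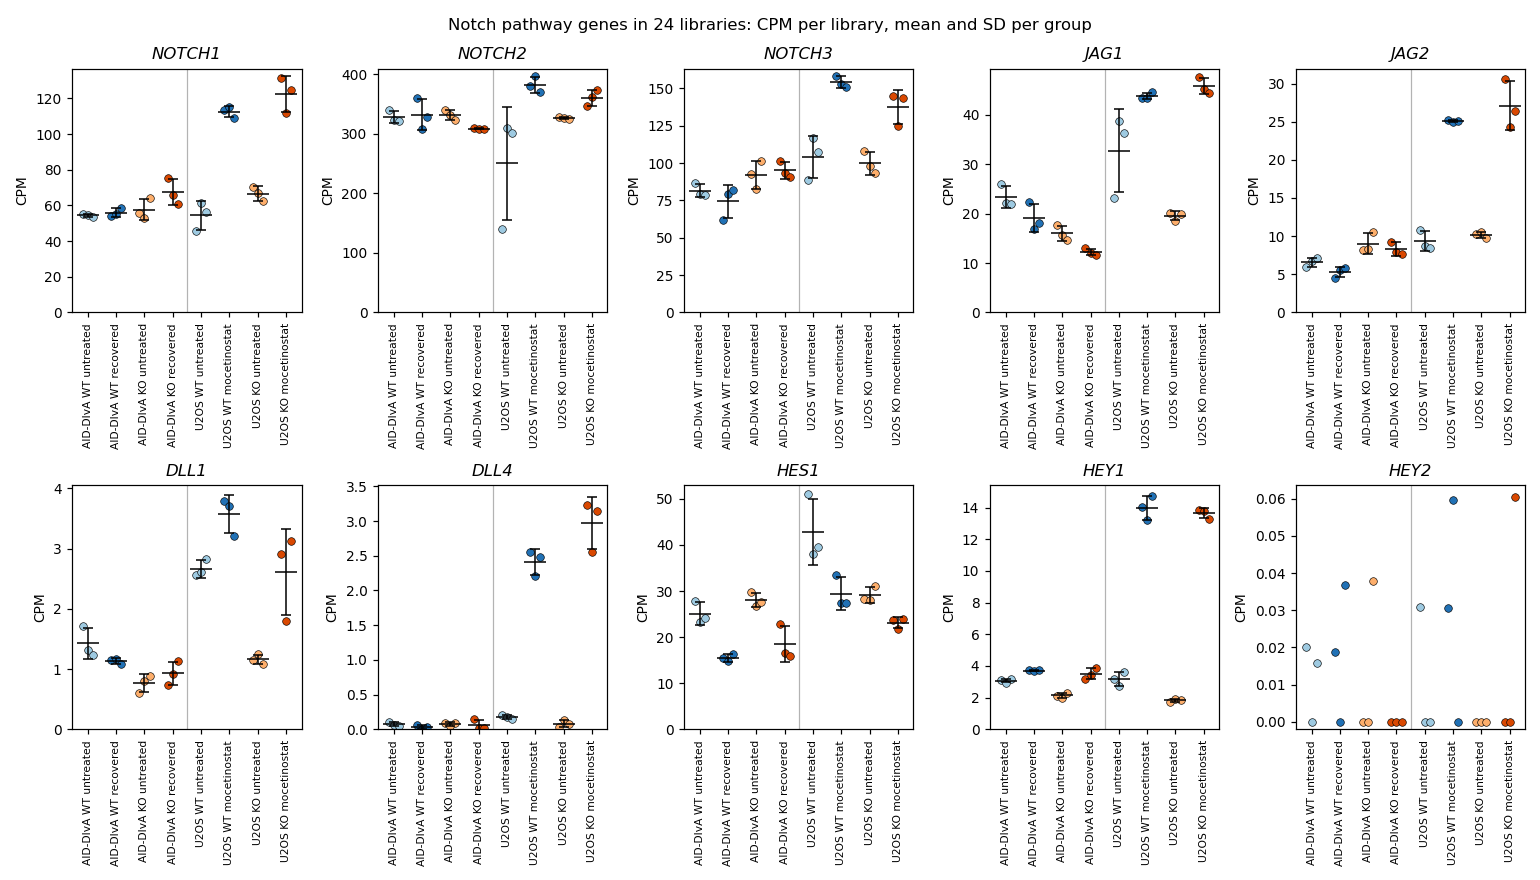
CPM of the 10 genes in each of the 24 libraries (points), with the group mean and SD as bars, on linear axes with a scale of their own per gene, and HEY2 as points only. In treated U2OS cells HEY1 lies at 13.2 to 14.7 CPM and DLL4 at 2.20 to 3.23 CPM, above all other libraries.

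**Figure D3:**
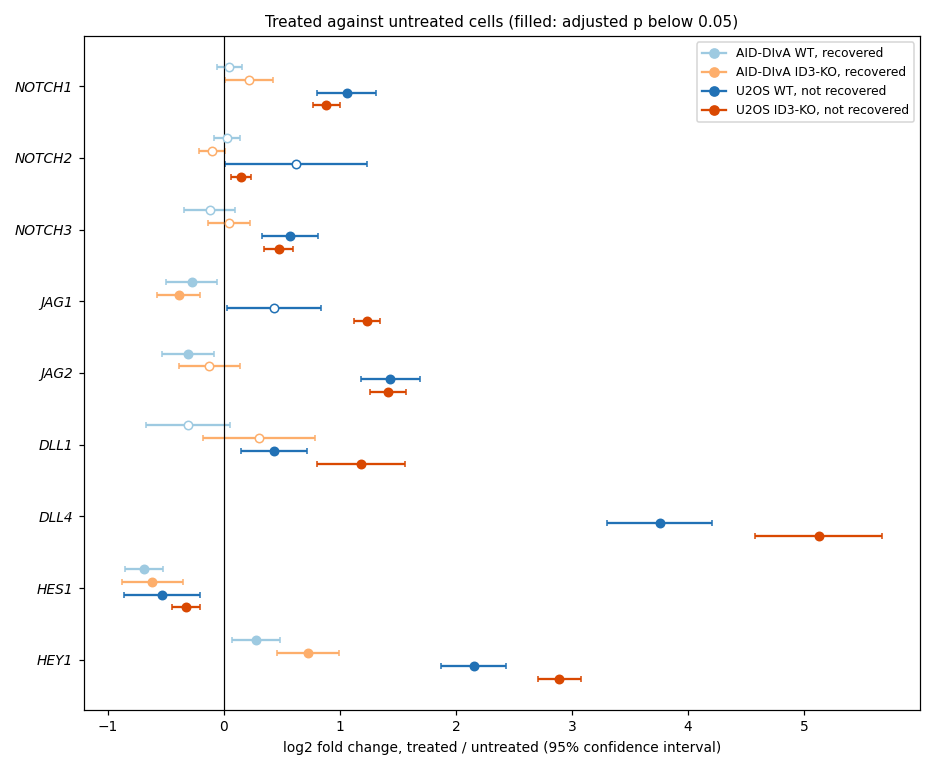
Log2 fold changes of treated against untreated cells for 9 genes, with 95% confidence intervals, filled where the adjusted p is below 0.05. DLL4, HEY1 and JAG2 lie above 1 in both U2OS genotypes, while HES1 lies below 0 in all 4 comparisons.

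Among the receptors, NOTCH1, which is on chromosome 9 (hg19, chr9:139388896-139440314, minus strand), had the largest response of these 3 receptors in U2OS cells. It stood at 45.7, 61.4 and 56.1 CPM in untreated WT U2OS cells and at 114, 115 and 109 CPM after treatment. In ID3-KO U2OS cells it stood at 70.6, 67.0 and 62.5 CPM before and at 131, 112 and 124 CPM after treatment. Every treated library lay above every untreated one in both genotypes. NOTCH1 rose by 1.06 ± 0.11 on the log2 scale in WT (95% interval 0.80 to 1.32, adjusted p = 0.00017) and by 0.88 ± 0.06 in ID3-KO cells (0.77 to 1.002, adjusted p = 4.6e-12). Without the library that stood apart the WT value was 0.94 ± 0.04. In recovered AID-DIvA cells the differences were 0.05 ± 0.05 (adjusted p = 0.43) in WT and 0.22 ± 0.09 (adjusted p = 0.082) in ID3-KO cells, and the latter passed without replicate 3 of the recovered KO cells (adjusted p = 0.047) or of the untreated KO cells (0.022).

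NOTCH3, the receptor best known from vascular mural cells (chr19:15270444-15311792, minus strand), rose less. Untreated WT U2OS libraries held 88.8, 117 and 107 CPM and treated ones 159, 153 and 151 CPM. In ID3-KO cells the values were 108, 97.9 and 93.4 CPM before and 145, 125 and 144 CPM after. The groups did not overlap in either genotype, and the log2 fold changes were 0.57 ± 0.10 (adjusted p = 0.0026) and 0.47 ± 0.06 (adjusted p = 4e-07). The WT value was 0.47 ± 0.04 without the library that stood apart. Recovered AID-DIvA cells gave -0.12 ± 0.10 (adjusted p = 0.34) and 0.04 ± 0.08 (adjusted p = 0.70).

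NOTCH2 (chr1:120454176-120612240, minus strand) was the most abundant receptor per length in all 8 groups. Its counts are uncertain, because the NOTCH2NL copies share sequence with it. Treated U2OS libraries held 380, 396 and 370 CPM in WT and 346, 362 and 373 CPM in ID3-KO cells, against 329, 326 and 325 CPM in untreated ID3-KO cells. The rise in ID3-KO cells was 0.15 ± 0.04 (adjusted p = 0.0033). In WT cells the value was 0.62 ± 0.26 (adjusted p = 0.085), and without the library that stood apart NOTCH2 rose by 0.33 ± 0.03 (adjusted p = 4e-12). In AID-DIvA cells the differences were 0.03 ± 0.05 and -0.10 ± 0.05 (adjusted p = 0.70 and 0.15).

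Of the ligands, DLL4 had the largest increase. DLL4, the Delta-like ligand of sprouting endothelium (chr15:41221538-41231237, plus strand), was close to the floor in untreated cells. Untreated WT U2OS libraries held 13, 13 and 8 fragments, and treated ones 167, 111 and 189. Untreated ID3-KO libraries held 2, 8 and 4 fragments, and treated ones 192, 139 and 208. In CPM the means went from 0.177 ± 0.0249 to 2.41 ± 0.186 in WT and from 0.0817 ± 0.0489 to 2.97 ± 0.371 in ID3-KO cells (SD, n = 3). No treated library overlapped an untreated one. The ratio of summed counts, scaled for depth, was 14.6 (95% counting interval 10.3 to 21.3) in WT and 37.9 (22.4 to 69.9) in ID3-KO cells, and the fitted log2 fold changes were 3.75 ± 0.20 (adjusted p = 5.7e-06) and 5.12 ± 0.26 (adjusted p = 5.7e-14). The WT value was 3.85 ± 0.26 without the library that stood apart. The KO fold rests on 14 untreated fragments. DLL4 passed the filter on low counts through the treated libraries alone, so it had to differ. The lack of overlap and these adjusted p-values are therefore no test of its rise. In AID-DIvA cells DLL4 was filtered out, with 0 to 5 fragments per library before treatment and after recovery. The summed counts there were 12 before and 5 after in WT (ratio 0.47, interval 0.13 to 1.43) and 13 and 7 in ID3-KO cells (0.667, 0.225 to 1.8).

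JAG2 (chr14:105607318-105635161 in hg19, minus strand) rose to nearly the same level in both genotypes. Untreated WT U2OS libraries held 10.8, 8.72 and 8.49 CPM and treated ones 25.2, 24.9 and 25.1 CPM. In ID3-KO cells it went from 10.3, 10.5 and 9.75 CPM to 30.7, 24.3 and 26.4 CPM. Treated and untreated libraries were fully apart, and the log2 fold changes were 1.43 ± 0.11 (adjusted p = 3.6e-05) and 1.42 ± 0.08 (adjusted p = 1.3e-13). The WT value was 1.55 ± 0.07 without the library that stood apart. In AID-DIvA cells JAG2 was lower after recovery in WT, with 4.55, 5.501 and 5.85 CPM against 5.96, 6.68 and 7.10 CPM before (-0.31 ± 0.11, adjusted p = 0.027). These groups did not overlap, but the call was lost without recovered replicate 1 (adjusted p = 0.053) or untreated replicates 2 or 3 (0.081 and 0.12). In ID3-KO AID-DIvA cells the difference was -0.12 ± 0.12 (adjusted p = 0.43).

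JAG1 (chr20:10618332-10654694, minus strand), the Jagged ligand with the highest level here, behaved differently between the genotypes in U2OS cells. Untreated ID3-KO libraries held 20.2, 18.6 and 19.9 CPM and treated ones 47.5, 45.2 and 44.5 CPM, a rise of 1.23 ± 0.05 (adjusted p = 2.9e-15). Treated WT libraries held 43.4, 43.4 and 44.6 CPM, above each of the 3 untreated ones. The WT difference was 0.43 ± 0.18 (adjusted p = 0.075). It passed without untreated replicate 1, the library that stood apart (0.23 ± 0.05, adjusted p = 2.6e-05), and without untreated replicate 2 (adjusted p = 0.04). After recovery JAG1 was lower in both AID-DIvA genotypes, at 22.3, 16.9 and 18.1 CPM against 26.0, 22.2 and 22.0 CPM in WT and at 12.9, 12.03 and 11.7 CPM against 17.6, 15.7 and 14.7 CPM in ID3-KO cells. The WT libraries overlapped and the ID3-KO libraries did not. The log2 differences were -0.28 ± 0.10 (adjusted p = 0.037) and -0.39 ± 0.08 (adjusted p = 0.0046). The WT call was lost without recovered replicates 2 or 3 (adjusted p = 0.14 and 0.13) or untreated replicate 1 (0.15), whereas the ID3-KO call passed in all 6 fits that left out 1 library.

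DLL1 (chr6:170591294-170599561, minus strand), a Delta-like ligand, was present at 26 to 248 fragments per library, and 5.89% of its fragments were of the opposite strand. Untreated WT U2OS libraries held 2.55, 2.60 and 2.82 CPM and treated ones 3.79, 3.71 and 3.21 CPM. In ID3-KO cells it went from 1.14, 1.25 and 1.09 CPM to 2.91, 1.80 and 3.13 CPM. The treated libraries lay above the untreated ones in each genotype. DLL1 rose by 0.43 ± 0.12 in WT (adjusted p = 0.021) and by 1.19 ± 0.18 in ID3-KO cells (adjusted p = 4.6e-06). The WT call was lost without untreated replicate 2 (adjusted p = 0.060) or treated replicates 1 or 2 (0.094 and 0.082), and held without the library that stood apart (0.40 ± 0.13, adjusted p = 0.0068). In AID-DIvA cells the differences after recovery were -0.31 ± 0.17 (adjusted p = 0.15) and 0.30 ± 0.22 (adjusted p = 0.29).

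The 2 expressed targets went opposite ways at the end of treatment. HEY1 (chr8:80676245-80680098, minus strand), a repressor induced by Notch and also by BMP signals, stood at 3.19, 2.73 and 3.62 CPM in untreated WT U2OS cells and at 14.02, 13.2 and 14.7 CPM after treatment. In ID3-KO cells it went from 1.74, 1.92 and 1.85 CPM to 13.8, 13.8 and 13.3 CPM. Treated libraries were far above untreated ones in both genotypes. The log2 fold changes were 2.15 ± 0.12 (4.44-fold, adjusted p = 8.7e-06) and 2.89 ± 0.09 (7.42-fold, adjusted p = 5.8e-18), and the WT value was 2.17 ± 0.10 without the library that stood apart.

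In recovered AID-DIvA cells HEY1 was higher than in untreated ones. No AID-DIvA group was from the end of treatment, so whether a rise persisted was not tested. WT AID-DIvA libraries held 3.72, 3.66 and 3.75 CPM against 3.13, 2.96 and 3.15 CPM before treatment. ID3-KO libraries held 3.19, 3.46 and 3.88 CPM against 2.13, 2.01 and 2.28 CPM. No libraries overlapped within a genotype. The increase was 0.28 ± 0.10 in WT (adjusted p = 0.028) and 0.73 ± 0.12 in ID3-KO cells (adjusted p = 0.0012). The WT call was lost in 5 of the 6 fits that left out 1 library: without recovered replicates 2 or 3 (adjusted p = 0.056 and 0.071) and without untreated replicates 1, 2 or 3 (0.057, 0.11 and 0.065). The ID3-KO call passed in all 6.

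HES1 (chr3:193853934-193856521 in hg19, plus strand), whose promoter window held the RBPJ core 2 times as shown above, fell in all 4 comparisons. In U2OS cells it went from 51.1, 38.0 and 39.5 CPM to 33.5, 27.5 and 27.4 CPM in WT and from 28.2, 28.0 and 31.2 CPM to 23.8, 21.7 and 23.99 CPM in ID3-KO cells. Every treated library lay below every untreated one. The log2 differences were -0.53 ± 0.14 (adjusted p = 0.015) and -0.32 ± 0.06 (adjusted p = 4e-05). The WT value was -0.39 ± 0.07 (adjusted p = 0.00033) without the library that stood apart, and the call was lost without treated replicates 2 or 3 (adjusted p = 0.068 and 0.070). After recovery HES1 stood at 15.4, 14.7 and 16.4 CPM against 27.9, 23.3 and 24.1 CPM in WT AID-DIvA cells. In ID3-KO AID-DIvA cells it stood at 23.0, 16.5 and 15.8 CPM against 29.8, 26.7 and 27.6 CPM. Both genotypes were again without overlap, with differences of -0.68 ± 0.08 (adjusted p = 7.2e-06) and -0.61 ± 0.12 (adjusted p = 0.0025). In bulk RNA, fewer expressing cells and less RNA per cell cannot be told apart.

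The next comparison asked whether untreated ID3-KO cells differ from WT cells. In both cell lines JAG1, DLL1 and HEY1 were lower in ID3-KO cells. In AID-DIvA cells 3 of 8 tested members were lower, 1 was higher (JAG2) and 4 did not pass, where 18.6% of 20441 genes were higher and 18.1% lower. In U2OS cells 4 of 8 were lower, these 3 and HES1, none was higher and 4 did not pass, where 6.56% of 20621 genes were higher and 8.63% lower. At an unadjusted p of 0.05 edgeR found 1 member higher (NOTCH1), and DESeq2 after adjustment none. The members' medians were 0.03 in AID-DIvA and -0.31 in U2OS cells, against 0.00 and -0.01 over all tested genes.

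JAG1 differed by -0.57 ± 0.08 (adjusted p = 2e-05) in AID-DIvA and by -0.75 ± 0.18 (adjusted p = 0.031) in U2OS cells. The libraries named above show no overlap between genotypes in either line. DLL1 held 0.601, 0.806 and 0.888 CPM in untreated ID3-KO against 1.72, 1.32 and 1.23 CPM in WT AID-DIvA cells, also without overlap. Its differences were -0.90 ± 0.19 (adjusted p = 0.0011) in AID-DIvA and -1.20 ± 0.14 (adjusted p = 0.0013) in U2OS cells, the only member beyond 1. HEY1 differed by -0.55 ± 0.11 (adjusted p = 0.00069) and -0.79 ± 0.15 (adjusted p = 0.011). JAG2 was higher in ID3-KO AID-DIvA cells at 8.21, 8.30 and 10.6 CPM (0.42 ± 0.10, adjusted p = 0.0041), above each WT library.

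The U2OS part of this comparison depended most on single libraries. HES1 was lower in ID3-KO U2OS cells (-0.56 ± 0.12, adjusted p = 0.022), whereas the AID-DIvA difference was 0.14 ± 0.07 (adjusted p = 0.14). The latter passed without untreated WT replicate 1 (0.22, adjusted p = 0.023), as NOTCH3 did in AID-DIvA cells without untreated KO replicate 2 (0.23, adjusted p = 0.0046). Without the WT library that stood apart, all 8 members passed: NOTCH1 (0.18), NOTCH2 (0.10) and JAG2 (0.24) as higher, and NOTCH3 (-0.17), JAG1 (-0.95), DLL1 (-1.22), HES1 (-0.41) and HEY1 (-0.77) as lower. Leaving out any 1 ID3-KO library instead left DLL1 alone (adjusted p of at most 0.014 for DLL1, and 0.053 to 0.13 for HEY1, HES1 and JAG1). JAG1 was also lost without WT replicates 2 or 3 (adjusted p = 0.085 and 0.088). Calls over all genes moved the same way, from 3132 to 8627 without the WT library that stood apart and to between 1266 and 1295 without 1 ID3-KO library.

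**Figure D4:**
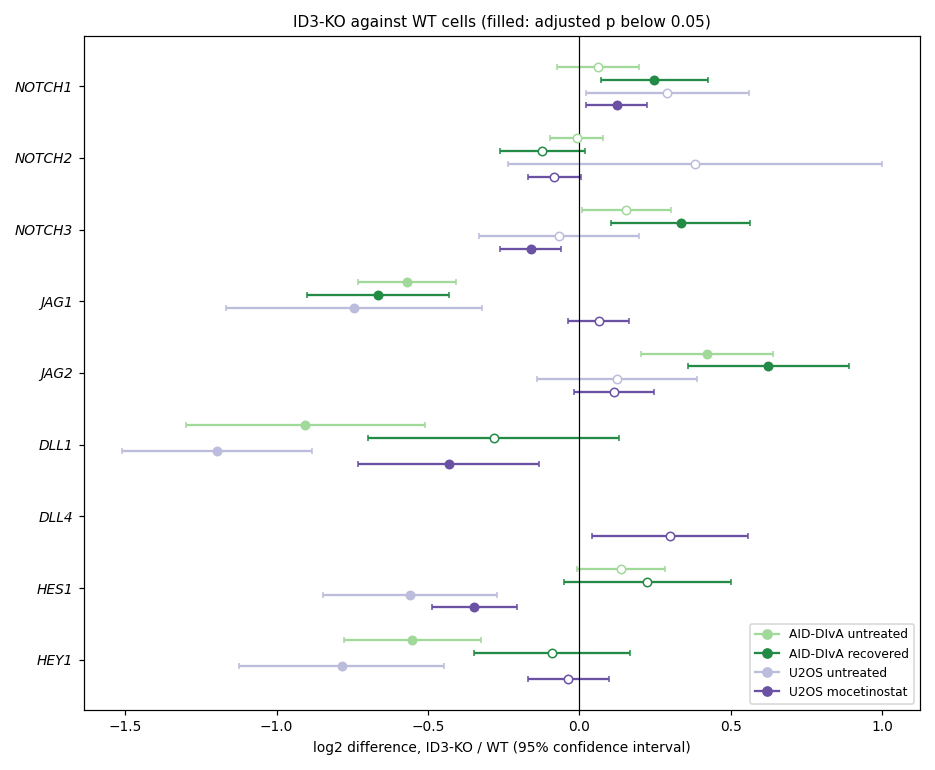
Log2 differences of ID3-KO against WT cells for 9 genes in the untreated and treated groups of each line, with 95% confidence intervals, filled where the adjusted p is below 0.05. JAG1, DLL1 and HEY1 lie below 0 in both untreated groups, and JAG1 and HEY1 lie at 0.06 and -0.04 in treated U2OS cells.

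Treated ID3-KO cells were then compared with treated WT cells. In treated U2OS cells 1 of 9 members was higher (NOTCH1), 3 were lower (NOTCH3, DLL1, HES1) and 5 did not pass, where 19% of 21800 genes were higher and 19% lower. HES1 was lower by 0.35 on the log2 scale (-0.35 ± 0.07, adjusted p = 2e-04), and this call held in all 6 fits that left out 1 library. DLL1 (-0.43 ± 0.15, adjusted p = 0.02), NOTCH3 (-0.16 ± 0.05, adjusted p = 0.0094) and NOTCH1 (0.12 ± 0.05, adjusted p = 0.049) also passed. NOTCH1 was lost without any library except treated KO replicate 2, NOTCH3 without treated WT replicate 1 (adjusted p = 0.070), and DLL1 without treated WT replicates 1 or 2 (0.080 and 0.062) or treated KO replicate 2 (0.16). JAG1 and HEY1, lower in ID3-KO cells before treatment, differed by 0.06 (interval -0.04 to 0.16) and -0.04 (interval -0.17 to 0.10) afterwards. DLL4 differed by 0.30 (interval 0.04 to 0.56, adjusted p = 0.06) and passed without treated KO replicate 2 (adjusted p = 0.019), as did JAG2 (0.18, adjusted p = 0.011). The members' median was -0.04, against -0.00 over all tested genes.

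In recovered AID-DIvA cells 3 of 8 members were higher in ID3-KO cells (NOTCH1, NOTCH3, JAG2), JAG1 was lower and 4 did not pass, where 12.6% of 20100 genes were higher and 11.1% lower, and the median was 0.07 against -0.02. JAG2 stood at 9.29, 7.96 and 7.63 CPM in recovered ID3-KO libraries, above all 3 WT ones (0.62 ± 0.12, adjusted p = 0.0035). JAG1 was below all 3 (-0.66 ± 0.11, adjusted p = 0.0012). Both calls held in all 6 fits that left out 1 library. NOTCH1 (0.25 ± 0.08, adjusted p = 0.045) was lost in 5 of these fits, all but that without recovered KO replicate 3, with an adjusted p of up to 0.15. NOTCH3 (0.33 ± 0.10, adjusted p = 0.040) was lost without recovered WT replicate 1 (adjusted p = 0.050) or recovered KO replicates 1 or 2 (0.066 and 0.079). HEY1, lower in ID3-KO cells before treatment, differed by -0.09 (interval -0.35 to 0.17) after recovery.

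Whether the response itself differed between genotypes was tested as an interaction. In U2OS cells 2 of 9 members passed, HEY1 and JAG1, where 2.15% of 22647 genes did, and the median was 0.21 against 0.01. HEY1 rose more in ID3-KO cells by 0.74 ± 0.14 on the log2 scale (interval 0.44 to 1.05, adjusted p = 0.014), from a lower untreated level to the same treated level within the interval given above. JAG1 rose more by 0.80 ± 0.19 (0.40 to 1.21, adjusted p = 0.045). The HEY1 call held in 11 of 12 fits that left out 1 library and was lost without untreated KO replicate 1 (adjusted p = 0.056), with a value of 0.72 (adjusted p = 0.00065) without the WT library that stood apart. The JAG1 call held in 1 of 12, the fit without the WT library that stood apart (1.004 ± 0.07, adjusted p = 4.3e-13), and had an adjusted p of 0.071 to 0.13 in the other 11. Without that WT library, DLL1 (0.78, adjusted p = 0.024) and NOTCH2 (-0.19, adjusted p = 0.031) passed as well. Calls over all genes went from 488 to 2091 in that fit. DLL1 (0.75 ± 0.25, adjusted p = 0.18) also passed without treated KO replicate 2 (adjusted p = 0.021). DLL4 had a value of 1.38 ± 0.42 (adjusted p = 0.13), or 1.28 ± 0.52 without that WT library (adjusted p = 0.12).

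In AID-DIvA cells no member passed the interaction test in edgeR or in DESeq2, where 1.21% of 21265 genes passed in edgeR. At an unadjusted p of 0.05 edgeR found 2, DLL1 (0.62, interval 0.04 to 1.20) and HEY1 (0.45, interval 0.14 to 0.77). The median was 0.17 against -0.02 over all tested genes.

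The recovered AID-DIvA response was also set against the U2OS response at the end of treatment. It was lower for 8 of 9 members in WT cells, with HES1 not passing, and for 7 of 9 in ID3-KO cells, with HES1 and NOTCH2 not passing, where 45.4% and 46% of 23087 genes passed in either direction. The members' medians were -0.74 and -0.88, against -0.01 and -0.04. DLL4 entered these fits through the treated U2OS libraries alone, and with it set aside 7 of 8 and 6 of 8 members were lower. HEY1 differed by -1.88 ± 0.14 in WT (adjusted p = 2.8e-11) and -2.17 ± 0.15 in ID3-KO cells (adjusted p = 5.6e-12), and JAG2 by -1.74 ± 0.16 (adjusted p = 2.5e-09) and -1.53 ± 0.16 (adjusted p = 1.3e-08). NOTCH1 differed by -1.01 ± 0.13 and -0.66 ± 0.13 (adjusted p = 4.3e-07 and 0.00015). HES1 differed by -0.15 (interval -0.50 to 0.19) and -0.28 (interval -0.63 to 0.06), and its WT value was -0.29 (adjusted p = 0.11) without the WT library that stood apart. Without the WT library that stood apart the WT values were -1.88 for HEY1, -1.85 for JAG2, -0.89 for NOTCH1, -0.58 for NOTCH3, -0.50 for JAG1, -0.70 for DLL1 and -4.87 for DLL4. NOTCH2 went from -0.59 to -0.30 in WT cells and passed also in ID3-KO cells (-0.22, adjusted p = 0.0051). In WT cells NOTCH2 was lost in 8 of the 24 fits that left out 1 library (adjusted p = 0.051 to 0.087): without recovered WT replicates 2 or 3, any untreated WT AID-DIvA library, recovered KO replicate 1, or treated WT U2OS replicates 2 or 3. DLL1 was lost in WT without untreated AID-DIvA replicate 1 (0.076) and NOTCH3 in ID3-KO cells without untreated AID-DIvA replicate 3 (0.057), while HES1 passed in ID3-KO cells without recovered replicate 1 (-0.45, adjusted p = 0.015). DLL4 gave -4.79 and -5.66, fitted values that rest on 0 to 5 fragments in each AID-DIvA library.

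A list of 66 other Notch pathway genes, 65 of them counted under their symbols, showed no common direction. In U2OS cells 15 of 60 tested were higher and 19 lower in WT, and 21 of 61 higher and 27 lower in ID3-KO cells, with median log2 fold changes of 0.01 and -0.01. In AID-DIvA cells 11 of 60 were higher and 20 lower in WT, and 13 of 59 higher and 14 lower in ID3-KO cells. The shares over all tested genes were 26% higher and 22.9% lower in WT and 35.8% and 34% in ID3-KO U2OS cells, and 23.9% and 23% in WT and 20.2% and 19.9% in ID3-KO AID-DIvA cells. The WT U2OS counts, and the pathway genes' values below that use untreated WT U2OS cells, include the library that stood apart. They are not given without it.

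The 12 of these genes with the largest treatment changes, among those that reached a mean of 1 CPM in a group, included further family members that rose. HES7, an oscillating repressor of the segmentation clock, stood at 1.03 ± 0.268 CPM in untreated and 8.18 ± 0.509 CPM in treated WT U2OS cells (SD, n = 3). The log2 fold changes were 3.003 ± 0.19 in WT (adjusted p = 1.3e-05) and 3.20 ± 0.12 in ID3-KO U2OS cells (adjusted p = 3.2e-16). It was also higher in recovered than in untreated AID-DIvA cells, by 1.29 ± 0.16 and 1.95 ± 0.17 (adjusted p = 2e-05 and 2.2e-05). DNER, a neuronal Notch ligand, rose from 0.168 ± 0.0423 to 2.65 ± 0.232 CPM in WT U2OS cells (4.01 ± 0.22, adjusted p = 6.5e-06) and by 4.53 ± 0.29 in ID3-KO cells (adjusted p = 3.7e-12), and was higher by 2.25 ± 0.43 and 3.10 ± 0.30 after recovery (adjusted p = 0.00074 and 4.3e-05). Its untreated ID3-KO libraries held 3 to 5 fragments in each line. Those of WT cells held 12, 9 and 2 in AID-DIvA and 11, 9 and 11 in U2OS cells. DNER thus passed the filter through the treated libraries in each of these comparisons, and the folds rest on few fragments. DLL3, a ligand that acts mainly within the receptor-bearing cell, rose by 1.32 ± 0.26 and 1.68 ± 0.10 (adjusted p = 0.0039 and 3.8e-13).

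Regulators of ligand and receptor turnover went both ways. NEURL, a ubiquitin ligase for ligands, rose by 2.17 ± 0.25 in WT and 1.86 ± 0.13 in ID3-KO U2OS cells (adjusted p = 3e-04 and 1.6e-11), with 20.9% of its fragments on that opposite strand. Of the Deltex ubiquitin ligases, DTX1 (1.12 ± 0.08 and 1.39 ± 0.06, adjusted p = 2.5e-05 and 5.7e-15) and DTX4 (1.45 ± 0.07 and 1.28 ± 0.05, adjusted p = 5e-06 and 1.7e-15) rose. DTX3 fell, from 60.4 ± 3.36 to 17.8 ± 0.872 CPM in WT (-1.75 ± 0.08, adjusted p = 3.6e-06) and from 32.2 ± 0.828 to 8.62 ± 0.403 CPM in ID3-KO cells (-1.89 ± 0.06, adjusted p = 1e-17). The remaining receptor, NOTCH4, went against NOTCH1 and NOTCH3 and fell from 4.15 ± 0.816 to 1.51 ± 0.338 CPM in WT (-1.44 ± 0.21, adjusted p = 0.00092) and from 2.10 ± 0.135 to 1.01 ± 0.137 CPM in ID3-KO U2OS cells (-1.06 ± 0.16, adjusted p = 3.1e-06). The microfibril proteins MFAP5 and MFAP2, which can bind Jagged ligands, were lower in all 4 comparisons, MFAP5 most after recovery (-1.69 ± 0.17 and -1.51 ± 0.18, adjusted p = 2.6e-06 and 0.00015). NRARP, a feedback inhibitor, is listed with changes of 0.67 to 1.15, but 97.9% of its fragments were of the strand that held under 6% of each member's fragments except HEY2, so its level is uncertain.

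**Figure D5:**
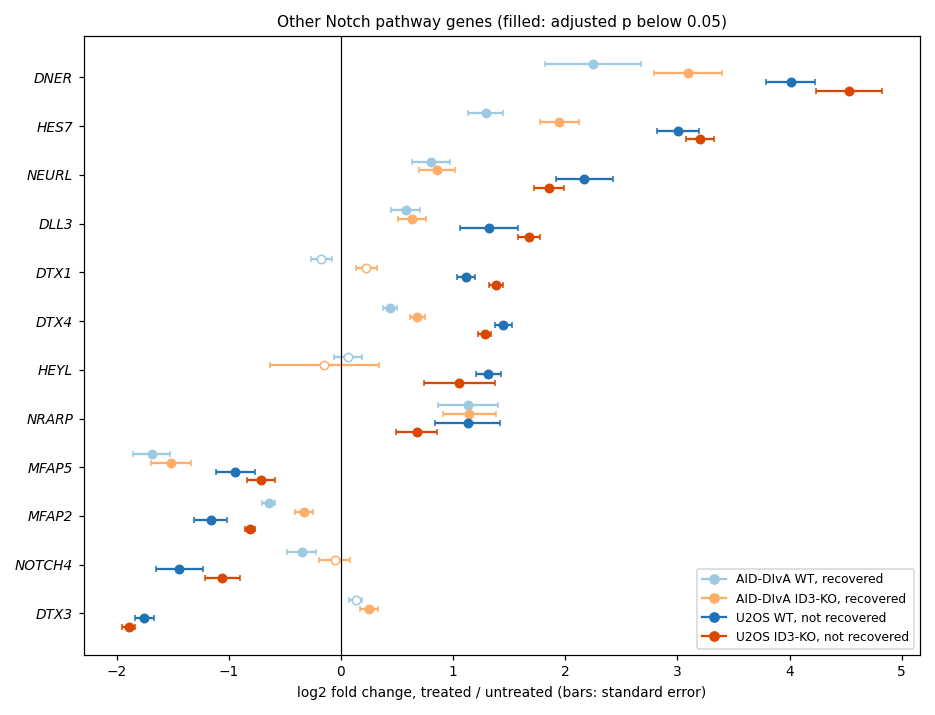
Log2 fold changes of treated against untreated cells for 12 other Notch pathway genes, with standard errors, filled where the adjusted p is below 0.05. DNER and HES7 lie above 3 in U2OS cells and above 1 after recovery, while DTX3 lies at -1.75 and -1.89 in U2OS cells.

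HEYL, another HEY family repressor, had by far the largest genotype difference of the named genes. It stood at 2.65, 2.23 and 2.58 CPM in untreated WT and at 0.137, 0.219 and 0.227 CPM in untreated ID3-KO AID-DIvA cells. In untreated U2OS cells it stood at 2.17, 2.40 and 2.33 CPM against 0.271, 0.236 and 0.196 CPM. The genotypes were fully apart in both lines, with log2 differences of -3.68 ± 0.20 (adjusted p = 7e-10) and -3.29 ± 0.19 (adjusted p = 7.2e-05). Untreated ID3-KO libraries held 8, 16 and 12 fragments in AID-DIvA and 14, 14 and 11 in U2OS cells, so these differences rest on few fragments. In AID-DIvA cells HEYL passed the filter on low counts through the WT libraries alone. HEYL rose in WT U2OS cells to 5.68 ± 0.239 CPM (1.31 ± 0.11, adjusted p = 4.8e-05) and in ID3-KO cells to 0.482 ± 0.120 CPM (1.05 ± 0.32, adjusted p = 0.0052). The difference between these responses was -0.26 ± 0.28 (adjusted p = 0.77). Unlike HEY1, it remained lower in treated ID3-KO U2OS cells, by -3.54 ± 0.15 (adjusted p = 1.8e-17).

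The genes most like 3 of the members in level over the 8 group means were found among 14092 genes with at least 1 CPM in every group. The measure was Pearson's r of log2 mean CPM over 8 groups, which share treatment and libraries, and it is given as a description. Among the genes most like HEY1 were JHDM1D (0.9968) and ZNF287 (0.9923). JAG1 was most like TMEM200A (0.9922), TTC9C (0.9861) and SPATA6 (0.9807), and HES1 most like SCUBE3 (0.9727), RPS2P5 (0.964) and LINC00888 (0.9632). Between members, JAG2 and NOTCH3 were closest (0.976), followed by JAG2 and NOTCH1 (0.946), whereas HES1 and HEY1 had an r of -0.08.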

How the data were processed

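RNA was sequenced as stranded total RNA libraries from 24 samples in 8 groups of 3. According to the study's methods, the authors used the Roddy workflow, in which STAR aligned the reads (build hg19/GRCh37) and featureCounts assigned fragments to genes. Tool versions are not given in the sources used here, and the gene IDs carry version numbers other than those of the annotation that the methods name. The deposited counts per gene, from either strand and not normalized or pooled, were used, and the deposited FPKM and TPM columns were not. AID-DIvA groups were taken from sample titles.

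Differential expression was tested with edgeR 4.0.16 (R 4.3.3, limma 3.58.1), using TMM scaling, filterByExpr, robust quasi-likelihood F tests and Benjamini-Hochberg adjustment over all tested genes, with adjusted p below 0.05 as the threshold. Errors of log2 values are standard errors. CPM used TMM factors over all 24 libraries. DESeq2, the tool named in the study's methods, was run as an alternative (version 1.42.0), as were other scaling, filters, strand, a replicate block, joint fits and leaving out each library. Some of the comparisons were checked on simulated counts. These held no library that stood apart, so the check does not cover the effect of such a library. Intervals of count ratios cover counting error only.

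The members, the pathway list and the naming rules were chosen with earlier results of these data known. Other pathway genes were named if they passed beyond a log2 fold change of 1 in a treatment comparison and reached 1 CPM in a group mean, at most 12 by size. DTX3L and CNTN1 were named after their values were seen. Similar genes were the 3 with the highest r for HES1, HEY1 and JAG1, of which 1 is not reported here. Promoters were read from RefSeq (GRCh38.p14), a build other than that of the counts.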

Additional observations from a re-analysis of the deposited data

Results flagged for a closer look

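Responses that differed between groups by a test of the difference itself are collected here, as log2 values from edgeR at an adjusted p below 0.05. In U2OS cells the rise was larger in ID3-KO than in WT cells for JAG1 (0.80) and HEY1 (0.74). Of 12 fits that left out 1 library, the JAG1 call held in 1 and the HEY1 call in 11. The only other Notch pathway genes with such a difference in U2OS cells, of those in the list of 65, were CNTN1 (0.69 ± 0.13, adjusted p = 0.015), a contactin that can act as a Notch ligand, and the ubiquitin ligase DTX3L (-0.56 ± 0.13, adjusted p = 0.034).

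Between recovered AID-DIvA and unrecovered U2OS cells, the WT response was lower by the following log2 differences: NOTCH1 -1.01, NOTCH2 -0.59, NOTCH3 -0.69, JAG1 -0.71, JAG2 -1.74, DLL1 -0.74, DLL4 -4.79 and HEY1 -1.88. The ID3-KO response was lower for NOTCH1 (-0.66), NOTCH3 (-0.42), JAG1 (-1.62), JAG2 (-1.53), DLL1 (-0.88), DLL4 (-5.66) and HEY1 (-2.17). DLL4 held 0 to 5 fragments in each AID-DIvA library and entered these fits through the treated U2OS libraries alone. Recovery and cell line label cannot be told apart in these values. Groups of 3 libraries were not searched for single outlying values.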

How the results depend on the processing

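No member changed sign past the threshold under any alternative. With 3 libraries per group, the calls near the threshold depended on single libraries. The number of members called went from 4 to between 2 and 3 in recovered WT AID-DIvA cells when 1 library was left out, from 4 to between 1 and 8 in untreated ID3-KO against WT U2OS cells, from 4 to between 2 and 4 in recovered ID3-KO against WT AID-DIvA cells, from 4 to between 1 and 5 in treated ID3-KO against WT U2OS cells, and from 2 to between 0 and 4 for the U2OS interaction. Fits of all 4 U2OS groups together left 1 of 4 members called in treated ID3-KO against WT cells (HES1), and counts of the reverse strand left 1 of 2 for the U2OS interaction (HEY1, with JAG1 at an adjusted p of 0.054).

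The labels' replicate numbers did not pair the samples: the correlation of deviations between same-numbered libraries lay between -0.426 and 0.306, and in no comparison were all 3 above 0.1. With a replicate block the members called were 2 in place of 4 in recovered ID3-KO against WT AID-DIvA cells (NOTCH1 and NOTCH3 lost) and 1 in place of 2 for the U2OS interaction (JAG1 lost, adjusted p = 0.061). In the other 10 comparisons the block moved the members called by less than 1.5 times. Within these, NOTCH2 passed (adjusted p = 0.048) and DLL1 was lost (0.058) in treated WT U2OS cells.

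Over all genes, calls in untreated ID3-KO against WT U2OS cells numbered 3132, with 5658 in a fit of all 4 groups and 1266 to 8627 when 1 library was left out. Calls in treated ID3-KO against WT U2OS cells went from 8267 to 4389 with all 4 groups in one fit, and those in recovered ID3-KO against WT AID-DIvA cells from 4759 to 3152 with the block. The AID-DIvA interaction had 258 calls, against 613 without a filter, 466 with DESeq2, 157 with the block and 122 to 297 with 1 library left out. The U2OS interaction had 488, against 917 with DESeq2, 775 without a filter, 794 in a fit of all 24 libraries and 257 to 2091 with 1 library left out.

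At the level of single genes, NOTCH2 and JAG1 in treated WT U2OS cells passed with DESeq2 (adjusted p = 0.03 and 0.04) and with all 4 groups in one fit (0.016 and 0.014), and HEY1 in recovered WT AID-DIvA cells was lost with DESeq2 (adjusted p = 0.10), without a filter (0.075) and with the block (0.05). The joint fit lost NOTCH2 in treated ID3-KO U2OS cells (adjusted p = 0.55), leaving 7 members called higher in place of 8, and DESeq2 lost NOTCH1 in treated ID3-KO against WT U2OS cells (0.063). Scaling by library totals moved the median of all genes in treated WT U2OS cells by 0.0896, from 0.0224 with TMM to 0.112. DLL4 and HEY2 are limited by depth, at 0 to 13 and 0 to 4 fragments in the libraries in which they were low.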
